A study of Mus musculus with 282 samples.

Results

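AKR/J and C57BL/6J are 2 classical inbred mouse strains, and their hypothalamic transcriptomes were set against each other gene by gene. AKR/J was bred for a high incidence of leukaemia, and C57BL/6J is the strain whose sequence is the mouse reference genome. The comparison used 3 AKR/J and 3 C57BL/6J mice out of 282 in the series, all males fed a high fat diet, with 1 hypothalamus library per mouse. The other mice belonged to further classical and recombinant inbred strains, and they entered only as the source of the within-strain spread and, for 23 of the 25 classical strains, as a place to set the pair. All 14079 gene loci of the deposited expression table were tested, of which 11497 carried 1 gene name, 639 carried several and 1943 carried none. Expression is in FPKM, fragments per kilobase of transcript scaled to the mapped fragments of each library, a level per unit of length. The labels give no age and no rearing or library batch, so strain and any such batch cannot be told apart. The replicates are separate mice, and the depth of each library is unknown from FPKM.

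The hypothalamus links the brain to the endocrine system. Arcuate neurons that make Npy and Agrp drive feeding, neighbouring neurons that make Pomc and Cartpt restrain it, and both respond to leptin through Lepr. Glial cells, tanycytes along the ventricle and microglia, the resident immune cells, share the tissue with these neurons. Inbred strains carry different alleles at very many genes. For this pair, alleles known from earlier work include a deletion of internal exons of Nnt and an intronic base deletion in Gabra2 in C57BL/6J, a duplicated segment around Glo1 in AKR/J and several other strains, and different haplotypes of the major histocompatibility complex (MHC).

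At an adjusted p under 0.05, 951 genes (6.75% of those tested) differed between the strains. Of these, 429 were higher in AKR/J (3.05%) and 522 were lower (3.71%). Differences are given as AKR/J minus C57BL/6J in log2(FPKM + 1), each with its standard error (SE), and a gene past the threshold is called. The median absolute difference of the called genes was 0.56, and 208 genes (1.48%) were called with a difference of at least 1, of which 113 were higher and 95 lower in AKR/J. The median over all genes was -0.0027. FPKM are scaled to each library, so a median near 0 cannot show whether total expression was level between the strains. The 3 mice of one strain did not overlap with the 3 of the other for 99.2% of the called genes, against 29.6% of all genes. Across the 13477 genes with a mean of at least 1 FPKM in either strain, Pearson correlations on the log2 scale lay between 0.983 and 0.988 within strains and between 0.966 and 0.971 across them (across genes, which are not independent replicates).

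**Figure D1:**
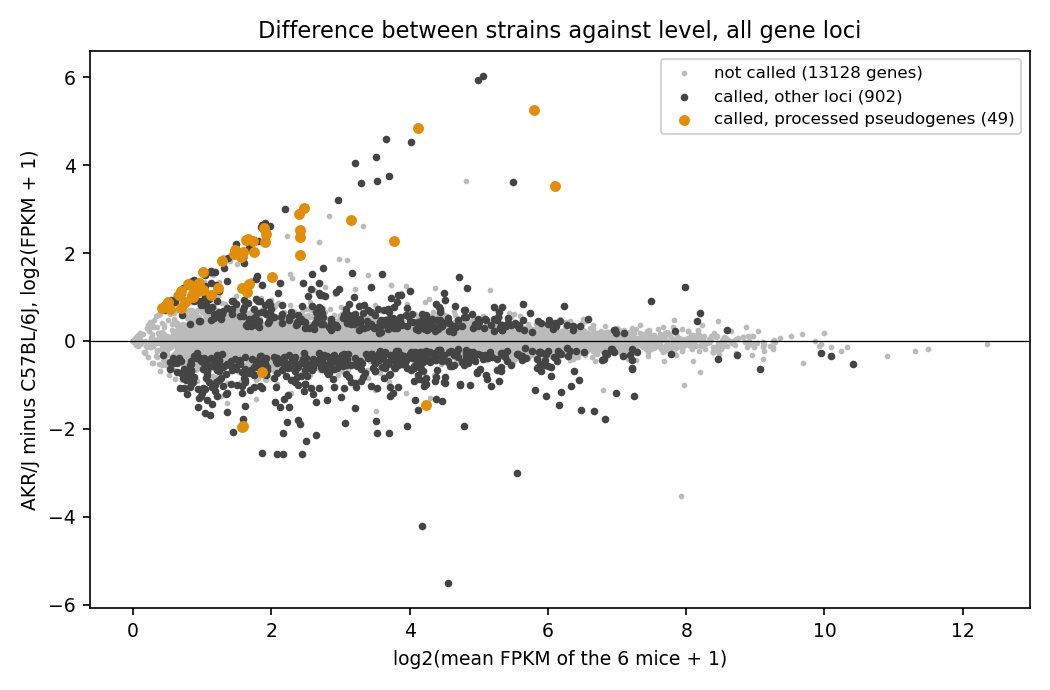
Each point is 1 of 14079 gene loci, with its mean level over the 6 mice on the x axis as log2(FPKM + 1) and the difference AKR/J minus C57BL/6J in log2(FPKM + 1) on the y axis. Grey points were not called, black points were called, and orange points are called loci of processed pseudogenes, of which 45 lie above 0 and 4 below.

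Pttg1 (chr11:43420250-43426251 in mm10, the build of the files), which encodes securin, the inhibitor of chromatid separation, had the widest gap among the coding genes that were lower in AKR/J. Its level was 0.913, 0.779 and 0.944 FPKM in the AKR/J mice and 35.3, 30.1 and 35.1 FPKM in the C57BL/6J mice, a 38.1-fold difference of the means. The difference was -4.20 (SE 0.31) with an adjusted p of 5.6e-27, and 21 of the other 23 classical strains were nearer to AKR/J. Tuba1c, an alpha-tubulin, showed the opposite order. It stood at 18.6, 20.4 and 22.3 FPKM in AKR/J and at 0.564, 0.534 and 1.08 FPKM in C57BL/6J (difference 3.65, SE 0.26, adjusted p = 2.4e-28). Tuba1c belongs to a family of near-identical genes whose reads can be shared, which leaves its level uncertain.

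Further coding genes were among the 15 largest differences in each direction. Prss41, a serine protease, was measured at 3.81, 5.06 and 2.49 FPKM in AKR/J and below 0.3 FPKM in every C57BL/6J mouse, with a difference of 1.90 (SE 0.23). Pla2g4e, a cytosolic phospholipase A2, reached 12.7, 13.2 and 11.3 FPKM in AKR/J against 3.00, 3.75 and 4.10 FPKM (difference 1.54, SE 0.14, adjusted p = 1.4e-20). Both were higher in every AKR/J mouse, which the choice of the 15 largest required. Tnni1, the slow skeletal isoform of troponin I, was between 0.132 and 0.372 FPKM in AKR/J and between 5.41 and 8.19 FPKM in C57BL/6J. Tekt5, a tektin of sperm flagella, was at 0.66, 1.26 and 0.898 FPKM in AKR/J and at 9.41, 7.77 and 8.05 FPKM in C57BL/6J. The difference was -2.57 (SE 0.27) for Tnni1 and -2.29 (SE 0.17) for Tekt5. Myo7a, an unconventional myosin of sensory hair cells, lay between 0.82 and 2.04 FPKM in AKR/J and between 7.16 and 7.57 FPKM in C57BL/6J (difference -1.88, SE 0.22, adjusted p = 1e-12). Of these, Tekt5 was the case where C57BL/6J was typical, with 3 of the other 23 strains nearer to AKR/J, whereas 21 were nearer to AKR/J for Myo7a and 19 for Tnni1.

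The locus of 1500015O10Rik, also among the 15 largest, was called with less certainty. Its values were 0.705, 0.561 and 1.29 FPKM in AKR/J and 2.8, 5.26 and 20.8 FPKM in C57BL/6J, with a difference of -2.14 (SE 0.65, adjusted p = 0.023). In the third C57BL/6J mouse the 5 choroid plexus markers found in the table summed to 1420 FPKM, against 10.5 to 38.2 FPKM in the other 5 mice, and Ttr alone, the thyroid hormone carrier made by that tissue, was at 1376 FPKM. Without that mouse the difference was -1.42 with an adjusted p of 0.31, and the call was also lost without the first or the second AKR/J mouse and with the 6 mice alone. For the locus Gm20463 the third AKR/J mouse lay far below the others, with 11.5, 13.3 and 0.00091 FPKM in AKR/J and 20.3, 27.6 and 15.1 FPKM in C57BL/6J, and without it the difference was -0.68 with an adjusted p of 0.66. Its call was also lost without the second C57BL/6J mouse and with the 6 mice alone.

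Genes at loci known for structural or deletion alleles were called in 11 of the 13 cases found, 7 higher and 4 lower in AKR/J, with a median of 0.30. The 4 lower ones were haemoglobin genes, described with the blood markers. This list was assembled for known alleles of these strains, so a high count is no independent evidence. Nnt (chr13:119335448-119408997), the mitochondrial transhydrogenase that makes NADPH from NADH, was at 10.6, 10.8 and 12.3 FPKM in AKR/J and at 6, 5.95 and 6.05 FPKM in C57BL/6J. The groups did not overlap, the difference was 0.80 (SE 0.081, adjusted p = 2.5e-16), and 22 of the other 23 strains were nearer to AKR/J. The locus that holds Gabra2 and Gabrg1, subunits of the GABA-A receptor, was at 49.2, 50.5 and 49.1 FPKM in AKR/J and at 35.4, 35.0 and 32.5 FPKM in C57BL/6J. This 1.45-fold difference (0.52 on the log2 scale, SE 0.13, adjusted p = 0.0032) set C57BL/6J below all 23 other strains, whose means ran from 43.8 to 60.8 FPKM. It was the only one of 13 GABA-A receptor subunit loci that was called, and the median of that list was 0.10. Whether Gabra2 or Gabrg1 carries the difference is not resolved at this locus.

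Wdfy1 (chr1:79702262-79761769), an endosomal FYVE-domain protein, was as sharply separated. Its levels were 16.2, 16.8 and 17.9 FPKM in AKR/J and 4.77, 5.43 and 5.53 FPKM in C57BL/6J (difference 1.53, SE 0.089, adjusted p = 7.7e-37). The means of the other 23 strains spanned only 16 to 19.5 FPKM, so C57BL/6J stood alone.

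Glo1 and Btbd9 lie close to each other on chromosome 17, and both were higher in AKR/J. Glo1, the glyoxalase that clears methylglyoxal, was at 63.9, 59.4 and 65.7 FPKM in AKR/J and at 31.8, 37.5 and 34.3 FPKM in C57BL/6J, a 1.83-fold difference of the means (0.85, SE 0.13, adjusted p = 1.3e-07). Btbd9, a BTB-domain gene, was at 14.2, 13.8 and 14.6 FPKM against 10.9, 11.5 and 11.5 FPKM (0.30, SE 0.086, adjusted p = 0.012). The same 8 of the other 23 strains were nearer to AKR/J for both genes: A/J, C3H/HeJ, C57BLKS/J, CBA/J, CE/J, DBA/2J, I/LnJ and SEA/GnJ. Without the third AKR/J mouse or the first C57BL/6J mouse, the call of Btbd9 was lost.

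Alad and Hdhd3 are neighbours on chromosome 4. Alad, the second enzyme of haem synthesis, was at 37.4, 41.7 and 36.7 FPKM in AKR/J and at 15.6, 17.9 and 15.5 FPKM in C57BL/6J (difference 1.19, SE 0.18, adjusted p = 1.2e-08). Hdhd3, a hydrolase of the haloacid dehalogenase family, was at 10.3, 7.55 and 9.84 FPKM and at 1.92, 2.5 and 2.24 FPKM (1.66, SE 0.20, adjusted p = 3.1e-12). All 17 strains that were nearer to AKR/J for Alad were also nearer to it for Hdhd3.

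**Figure D2:**
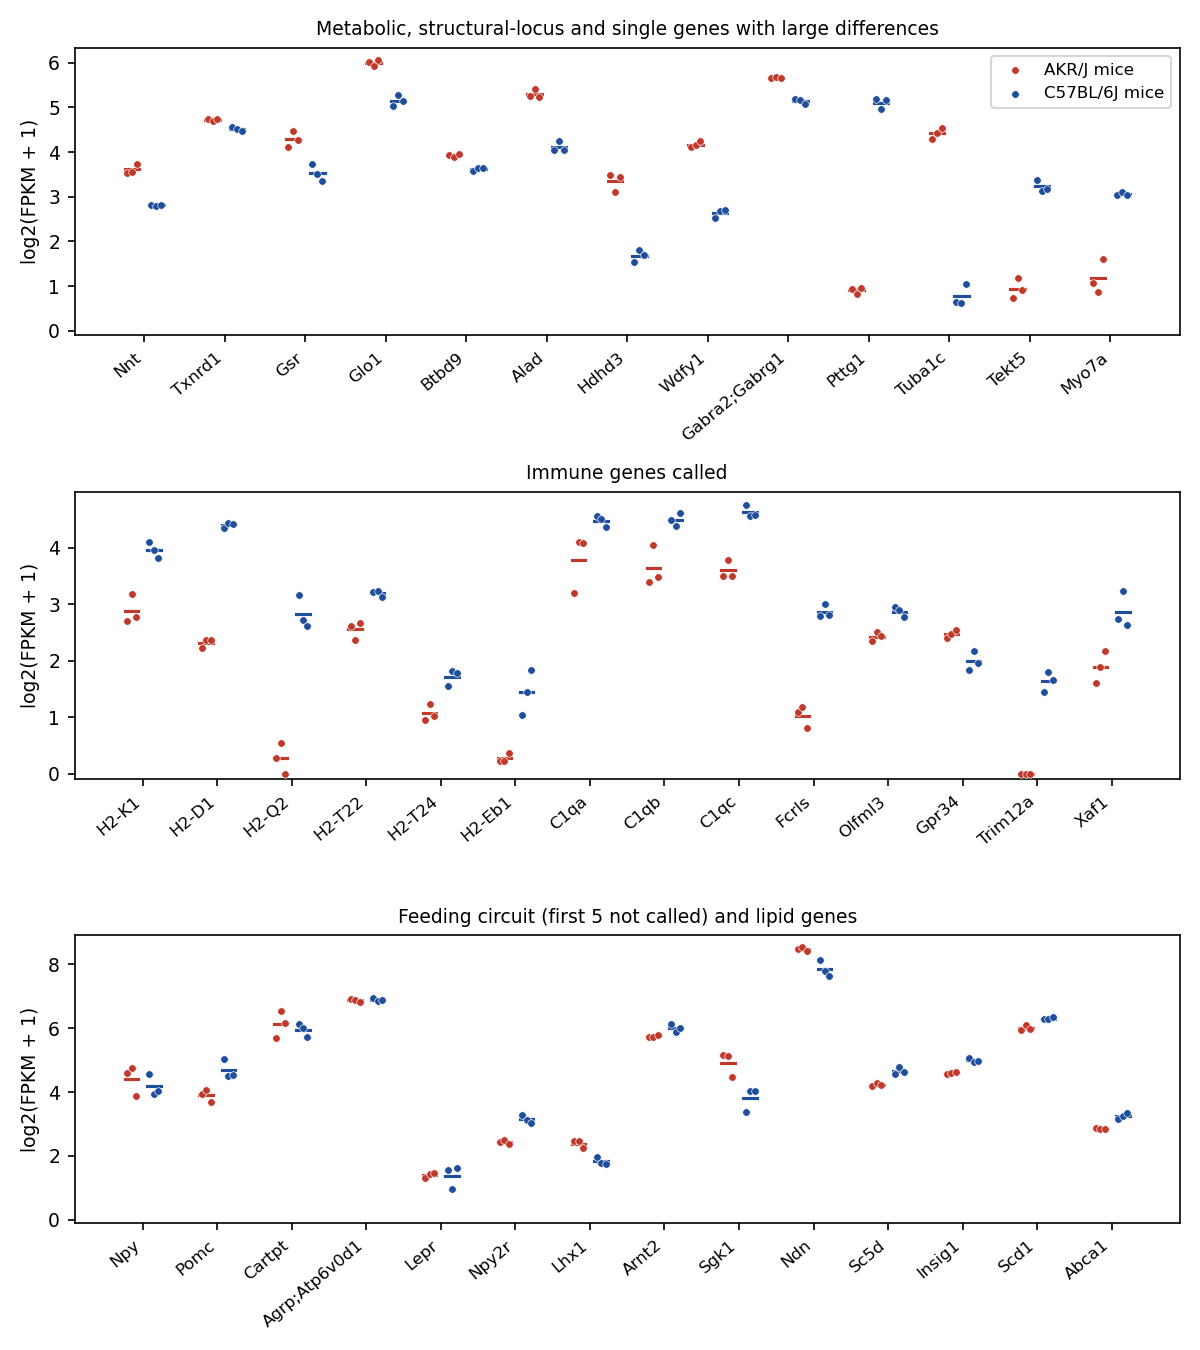
Each dot is 1 mouse, red for AKR/J and blue for C57BL/6J (3 mice each), with bars at the strain means, on a log2(FPKM + 1) axis. The upper panel holds metabolic, structural-locus and single genes, the middle panel immune genes, and the lower panel feeding, hypothalamic and lipid genes, of which the first 5 were not called.

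The list median of 24 mitochondrial redox and antioxidant genes was 0.017. Of these genes 3 were higher in AKR/J and none lower, beside 3.05% and 3.71% of all genes. Besides Nnt these were Gsr, glutathione reductase, and Txnrd1, cytosolic thioredoxin reductase, which both draw on NADPH. Gsr was at 16.3, 21.2 and 18.3 FPKM in AKR/J and at 12.4, 10.3 and 9.19 FPKM in C57BL/6J (0.75, SE 0.16, adjusted p = 0.00028). Txnrd1 was at 25.8, 24.7 and 25.7 FPKM against 22.4, 22 and 21.1 FPKM, a small difference of 0.21 (SE 0.059, adjusted p = 0.013) whose call was lost without the first or the third AKR/J mouse or the third C57BL/6J mouse. Of 91 nuclear subunits of oxidative phosphorylation, 1 was called, Cox7a2l, a factor of respiratory supercomplexes. It was lower in AKR/J, at 50.2, 46.7 and 51.9 FPKM against 81.3, 68.6 and 68.2 FPKM (-0.54, SE 0.15, adjusted p = 0.012), and without the second AKR/J or the first C57BL/6J mouse it was not called.

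The MHC genes that were called were all lower in AKR/J. Of 18 MHC class I, class II and antigen processing genes found, 6 were lower and none higher, beside 3.71% and 3.05% of all genes. Of the 18 differences 16 were negative, beside 7138 of all 14079 genes, and the list median was -0.53. H2-D1 (chr17:35262730-35267604), a classical class I heavy chain that presents peptides to cytotoxic T cells, was at 3.65, 4.15 and 4.14 FPKM in AKR/J and at 19.4, 20.6 and 20.4 FPKM in C57BL/6J (difference -2.09, SE 0.23, adjusted p = 2.2e-14). H2-K1, the other classical class I gene of this list, was at 5.5, 8.03 and 5.82 FPKM against 16.2, 14.5 and 13.1 FPKM (-1.08, SE 0.30, adjusted p = 0.0095). H2-Q2, of class I as well, was at 0.207, 0.457 and 0 FPKM against 7.93, 5.57 and 5.15 FPKM (-2.56, SE 0.22, adjusted p = 1.3e-20). All AKR/J mice were below all C57BL/6J mice for each. The choice of the 15 largest required this of H2-D1 and H2-Q2, and mice did not overlap for 29.6% of all genes.

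The remaining MHC members called were H2-T22 (-0.64), H2-T24 (-0.65) and the class II chain H2-Eb1 (-1.17), which was between 0.161 and 0.29 FPKM in AKR/J and between 1.06 and 2.57 FPKM in C57BL/6J. These 3 and H2-K1 lost their calls without certain mice. H2-Eb1 was not called without any 1 of the AKR/J mice, nor without the second or the third C57BL/6J mouse. H2-T22 needed the first and second mice of either strain, H2-T24 the first and the third AKR/J and the second and the third C57BL/6J mice, and H2-K1 the first mouse of either strain. MHC class I genes are near-identical copies of each other and differ in sequence between the strains, and reads of both strains were aligned to the C57BL/6J genome with up to 3 mismatches. The part of alignment in these levels was not tested. Of the other 23 strains, 6 were nearer to AKR/J for H2-D1, 16 for H2-K1 and 15 for H2-Q2.

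The 3 chains of C1q, the recognition molecule of the classical complement pathway made in brain by microglia, were lower in AKR/J and adjoin each other on chromosome 4. C1qc was at 10.2, 12.8 and 10.3 FPKM in AKR/J and at 25.9, 22.4 and 22.7 FPKM in C57BL/6J (-1.03, SE 0.19, adjusted p = 1.9e-05). C1qb was at 9.47, 15.5 and 10.1 FPKM against 21.6, 19.8 and 23.4 FPKM (-0.86, SE 0.22, adjusted p = 0.0035). C1qa was at 8.15, 16.1 and 15.9 FPKM against 22.6, 21.8 and 19.5 FPKM (-0.69, SE 0.20, adjusted p = 0.018). No AKR/J mouse reached a C57BL/6J mouse for any of them, as for 99.2% of the called genes. Without the first AKR/J mouse C1qa and C1qb were not called. The call of C1qa was also lost with the 6 mice alone and without the first or second C57BL/6J mouse. Of the loci on either side, named after their values were seen, Ephb2 was higher in AKR/J (0.40, adjusted p = 0.022), a call lost with the 6 mice alone and without the first AKR/J or the second or the third C57BL/6J mouse. On the other side Epha8 was not called (0.16, adjusted p = 0.78) and Zbtb40, next to it, was higher (0.44, adjusted p = 0.00069).

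Of 13 complement and acute phase genes, these 3 were lower and 2 were higher, beside 3.71% and 3.05% of all genes. The list median was -0.041. Serpina3n, a secreted serine protease inhibitor of reactive astrocytes, was at 35.4, 40.5 and 29.3 FPKM in AKR/J and at 24.3, 20 and 23.3 FPKM in C57BL/6J (0.61, SE 0.15, adjusted p = 0.002), and its call was lost without the second AKR/J mouse. Cd59a, which blocks the membrane attack complex, was at 8.44, 10.2 and 9.36 FPKM against 5.77, 5.58 and 6.17 FPKM (0.59, SE 0.15, adjusted p = 0.003).

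Microglial markers did not move as a group. Of 17 found, 1 was higher and 2 were lower in AKR/J, beside 3.05% and 3.71% of all genes. The median was 0.0082. The summed level of the list ran from 257 to 266 FPKM in AKR/J and from 250 to 282 FPKM in C57BL/6J. Fcrls, an Fc receptor-like scavenger receptor of microglia, was at 1.12, 1.27 and 0.744 FPKM in AKR/J and at 5.92, 7.03 and 5.99 FPKM in C57BL/6J, a 6.03-fold difference of the means (-1.84, SE 0.19, adjusted p = 6.4e-16). For Fcrls, 22 of the other 23 strains were nearer to AKR/J. Olfml3 was lower (-0.44, SE 0.14, adjusted p = 0.035) and Gpr34, a lysophosphatidylserine receptor, was higher in AKR/J (0.48, SE 0.16, adjusted p = 0.041). Both of these calls were lost when any 1 of the AKR/J mice or the first C57BL/6J mouse was left out, Olfml3 also without the second and Gpr34 without the third C57BL/6J mouse. Cx3cr1, the fractalkine receptor, was at 11.1, 11.4 and 11.5 FPKM in AKR/J and at 9.64, 10.8 and 9.61 FPKM in C57BL/6J and was not called (0.16, adjusted p = 0.43). In bulk tissue, fewer cells of a type and less RNA per cell cannot be told apart.

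Genes of antiviral defence were called once in each of their lists. Trim12a, of the tripartite motif family near Trim5-type restriction factors, was listed at 0 FPKM in all AKR/J mice and at 1.73, 2.49 and 2.14 FPKM in C57BL/6J, the only one called of 10 retrovirus receptors and restriction factors (adjusted p = 3.2e-14, list median -0.028). Xaf1, an interferon-induced partner of XIAP, was at 2.05, 2.71 and 3.48 FPKM in AKR/J and at 5.69, 8.33 and 5.21 FPKM in C57BL/6J (-0.98, SE 0.24, adjusted p = 0.0023). It was the only one of 20 interferon-stimulated genes called, the list median was -0.19, and without the second C57BL/6J mouse it was not called. Among 8 genes of the Ly6 family, Lynx1, which binds nicotinic acetylcholine receptors, was higher in AKR/J (0.35, SE 0.095, adjusted p = 0.0086) and lost its call without the first mouse of either strain.

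Haemoglobin transcripts were lower in AKR/J, and all 4 haemoglobin genes were called. Hba-a1 was at 3.41, 11.1 and 8.68 FPKM in AKR/J and at 20.1, 14.6 and 17.3 FPKM in C57BL/6J (-1.18, SE 0.39, adjusted p = 0.045). Hbb-bs was at 27.5, 58.7 and 51.4 FPKM against 99.4, 98.7 and 97.7 FPKM (-1.16, SE 0.35, adjusted p = 0.02). The first AKR/J mouse was the lowest for both, and without it the adjusted p was 0.45 and 0.27. Neither was called without any 1 of the C57BL/6J mice either, and Hba-a1 was also lost without the third AKR/J mouse. Hba-a2 was at 0.207, 0 and 0 FPKM against 6.27, 4.94 and 4.53 FPKM (adjusted p = 1.1e-08), and Hbb-bt at 0.601, 1.54 and 2.05 FPKM against 6.12, 7.93 and 7.09 FPKM (adjusted p = 0.00039). Alas2, the erythroid enzyme of haem synthesis, was between 0.531 and 1.44 FPKM in AKR/J and between 1.41 and 3.42 FPKM in C57BL/6J and was not called (adjusted p = 0.096). These genes are near-identical pairs with strain-specific alleles, and the blood markers summed to between 32.4 and 71.9 FPKM in AKR/J and between 128 and 134 FPKM in C57BL/6J. The part of blood in the MHC and complement values was not tested.

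None of the feeding peptides of the arcuate nucleus was called. Npy was at 23, 26.1 and 13.7 FPKM in AKR/J and at 22.6, 14.3 and 15.3 FPKM in C57BL/6J (0.23, SE 0.26, adjusted p = 0.76). Cartpt was at 50.9, 91 and 71.3 FPKM against 68.7, 62.8 and 51.9 FPKM (0.18, SE 0.26, adjusted p = 0.81). The ranges of both overlapped. Pomc, whose product is cut to melanocortins, was at 14.3, 15.8 and 11.8 FPKM in AKR/J and at 31.5, 21.4 and 22 FPKM in C57BL/6J. These ranges did not overlap, yet the spread of Pomc within strains over the whole series was wide, and the difference of -0.78 had an SE of 1.52 (adjusted p = 0.88). Agrp shares its locus with Atp6v0d1, and the locus was at 119, 116 and 113 FPKM against 121, 114 and 117 FPKM (adjusted p = 0.96), which says little of Agrp alone.

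Lepr, the leptin receptor, was at 1.46, 1.73 and 1.76 FPKM in AKR/J and at 1.97, 0.95 and 2.06 FPKM in C57BL/6J (0.021, SE 0.19, adjusted p = 0.98). Of 27 genes of leptin, insulin and feeding receptors and signalling, 1 was called, and the list median was -0.015. It was Npy2r, the presynaptic Y2 receptor for neuropeptide Y and peptide YY, at 4.39, 4.61 and 4.14 FPKM in AKR/J and 8.64, 7.79 and 7.16 FPKM in C57BL/6J. This difference of -0.72 (SE 0.16, adjusted p = 0.00053) held without each mouse in turn, and 10 of the other 23 strains were nearer to AKR/J. No call was made among 6 releasing hormones (median 0.011) or 19 other neuropeptides (median -0.059), and the count of the whole list of 31 hypothalamic markers taken from the study was 1 lower, Aqp4.

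Of 19 hypothalamic identity transcription factor loci, 1 was higher and 2 were lower, beside 3.05% and 3.71% of all genes. The list median was -0.13. Lhx1, a LIM-homeodomain factor of the suprachiasmatic nucleus, was at 4.52, 4.49 and 3.72 FPKM in AKR/J and at 2.93, 2.42 and 2.34 FPKM in C57BL/6J (0.56, SE 0.17, adjusted p = 0.025). Arnt2, the bHLH-PAS partner of Sim1, was at 52.2, 52.4 and 53.9 FPKM against 68.7, 57.8 and 62.6 FPKM (-0.25, SE 0.079, adjusted p = 0.035). Both calls were lost without some of the mice of each strain: the first or second AKR/J mouse or the third C57BL/6J mouse for either gene, the second C57BL/6J mouse for Lhx1, and the third AKR/J or first C57BL/6J mouse for Arnt2. With the 6 mice alone Arnt2 was not called either. The locus that joins Dlx1, a homeobox factor of GABA neurons, with Metap1d was lower in AKR/J at 14.6, 16.5 and 12.4 FPKM against 30.1, 29.7 and 25.8 FPKM (-0.94, SE 0.16, adjusted p = 3e-06). Which of its genes carries that difference is not resolved at this locus.

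Ndn, the imprinted gene of necdin in the region deleted in Prader-Willi syndrome, was the only one called of 20 imprinted loci. It reached 356, 368 and 339 FPKM in AKR/J and 278, 218 and 197 FPKM in C57BL/6J (0.63, SE 0.13, adjusted p = 0.0002). All 23 other strains were nearer to AKR/J, with means from 316 to 428 FPKM, so the low level was that of C57BL/6J. Sgk1, a kinase induced by glucocorticoids, was the only one called of 12 glucocorticoid-responsive genes (list median 0.16), at 34.5, 33.7 and 21.1 FPKM in AKR/J and 9.4, 15.5 and 15.3 FPKM in C57BL/6J. Its difference of 1.09 (SE 0.34, adjusted p = 0.028) was not called without the first or second AKR/J mouse or the first C57BL/6J mouse. No member was called among 16 circadian clock genes (median -0.025) or 11 immediate early genes (median 0.30).

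Some genes of lipid metabolism were called, all of them lower in AKR/J. Of 28 genes of cholesterol and fatty acid synthesis 3 were lower and none higher, beside 3.71% and 3.05% of all genes, with 10 positive differences and a list median of -0.043. Sc5d, the sterol-C5-desaturase late in cholesterol synthesis, was at 17.3, 18.5 and 17.6 FPKM in AKR/J and at 22.9, 26.7 and 24 FPKM in C57BL/6J (-0.44, SE 0.11, adjusted p = 0.0045), and was not called without the second C57BL/6J mouse. Insig1, which holds the sterol sensor in the endoplasmic reticulum, was at 22.6, 23.3 and 24 FPKM against 32.5, 30 and 30.4 FPKM (-0.40, SE 0.084, adjusted p = 0.00021). Scd1, a stearoyl-CoA desaturase, was at 60.8, 67.8 and 61.4 FPKM against 76.6, 76.8 and 80.1 FPKM (-0.29, SE 0.091, adjusted p = 0.027). The mice of the strains did not overlap for these 3, as for 29.6% of all genes. Scd1 lost its call with quantile normalization and without any of 5 of the 6 mice, the second AKR/J mouse excepted. Abca1, the exporter of cholesterol to apolipoproteins, was the only one called of 13 genes of cholesterol esters and lipid carriers (median -0.13), at 6.28, 6.12 and 6.13 FPKM against 7.86, 8.47 and 9.13 FPKM (-0.40, SE 0.10, adjusted p = 0.0041).

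Few markers of glia and vessels were called. Of 12 astrocyte markers, Aqp4, the water channel of astrocyte endfeet, was lower in AKR/J at 21, 22.4 and 25.3 FPKM against 30.7, 37.1 and 30.6 FPKM (-0.50, SE 0.15, adjusted p = 0.015), and was not called without the first or second AKR/J or the second C57BL/6J mouse. Of 15 tanycyte and ependymal markers, Rarres2, the chemoattractant chemerin made by tanycytes, was lower at 11.8, 12.6 and 11.3 FPKM against 21.9, 23.8 and 23.8 FPKM (-0.90, SE 0.21, adjusted p = 0.00072). Rarres2 was called whichever mouse was left out. The summed level of the tanycyte and ependymal list was between 141 and 156 FPKM in AKR/J and between 170 and 171 FPKM in C57BL/6J, with 11 of 15 differences negative. The medians of these lists were -0.027 and -0.21. Oligodendrocyte markers had no member called of 20. Of their differences 17 were negative, beside 7138 of all 14079 genes, and the median was -0.17. The mice of the strains did not overlap for 12 of the 20, beside 29.6% of all genes. The sums of these markers ran from 2433 to 2624 FPKM in AKR/J and from 2799 to 3026 FPKM in C57BL/6J. Markers of 1 cell type are not independent of each other. No member was called among 10 endothelial (median -0.11) markers, 17 genes of endoplasmic reticulum stress (median 0.040) and 3 metallothioneins (median 0.029), and among 14 heat shock chaperones 1 was, Hspe1, the mitochondrial co-chaperone (list median -0.050). Hspe1 was lower in AKR/J at 22.4, 22.6 and 22.9 FPKM against 39.2, 38.3 and 36.6 FPKM (-0.72, SE 0.16, adjusted p = 0.00076). On the Y chromosome Uty, a histone demethylase paralogue, was higher at 11.4, 10.8 and 11.4 FPKM against 4.8, 5.23 and 5.42 FPKM (0.99, SE 0.14, adjusted p = 9.7e-09), and 7 of the other 23 strains were nearer to AKR/J.

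Markers of tissue around the hypothalamus differed between single mice, and some of their sums did not overlap between the strains. The anterior pituitary markers summed to 198, 26.1 and 7.36 FPKM in the AKR/J mice and to between 3.2 and 5.59 FPKM in C57BL/6J, led by Gh, growth hormone, at 151 FPKM in the first AKR/J mouse. All 6 pituitary markers had positive differences. The thalamic markers summed to 327, 231 and 224 FPKM in AKR/J and to 141, 219 and 204 FPKM in C57BL/6J, with 5 of 5 differences positive. The sums of both lists were higher in every AKR/J mouse than in any C57BL/6J mouse, though the nearest thalamic sums were 224 and 219 FPKM. The choroid plexus sums were lower in AKR/J, at 25.7, 10.5 and 12.4 FPKM against 38.2, 26.1 and 1420 FPKM. The striatal sums overlapped, as did the cortical and hippocampal sums. The part of these tissues in the other results was not tested. No member of the pituitary or thalamic list was called, nor any of the 5 choroid plexus, 5 striatal and 3 cortical and hippocampal markers. The medians of these last 3 lists were -1.18, 0.021 and 0.27. The medians of the pituitary and thalamic lists were 0.89 and 0.47. The first AKR/J mouse, without which some calls given above were lost, had the highest pituitary sum. Several of those calls, such as those of Hbb-bs, Arnt2 and Gpr34, were also lost without other mice. The part of pituitary RNA in these losses was not tested.

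**Figure D3:**
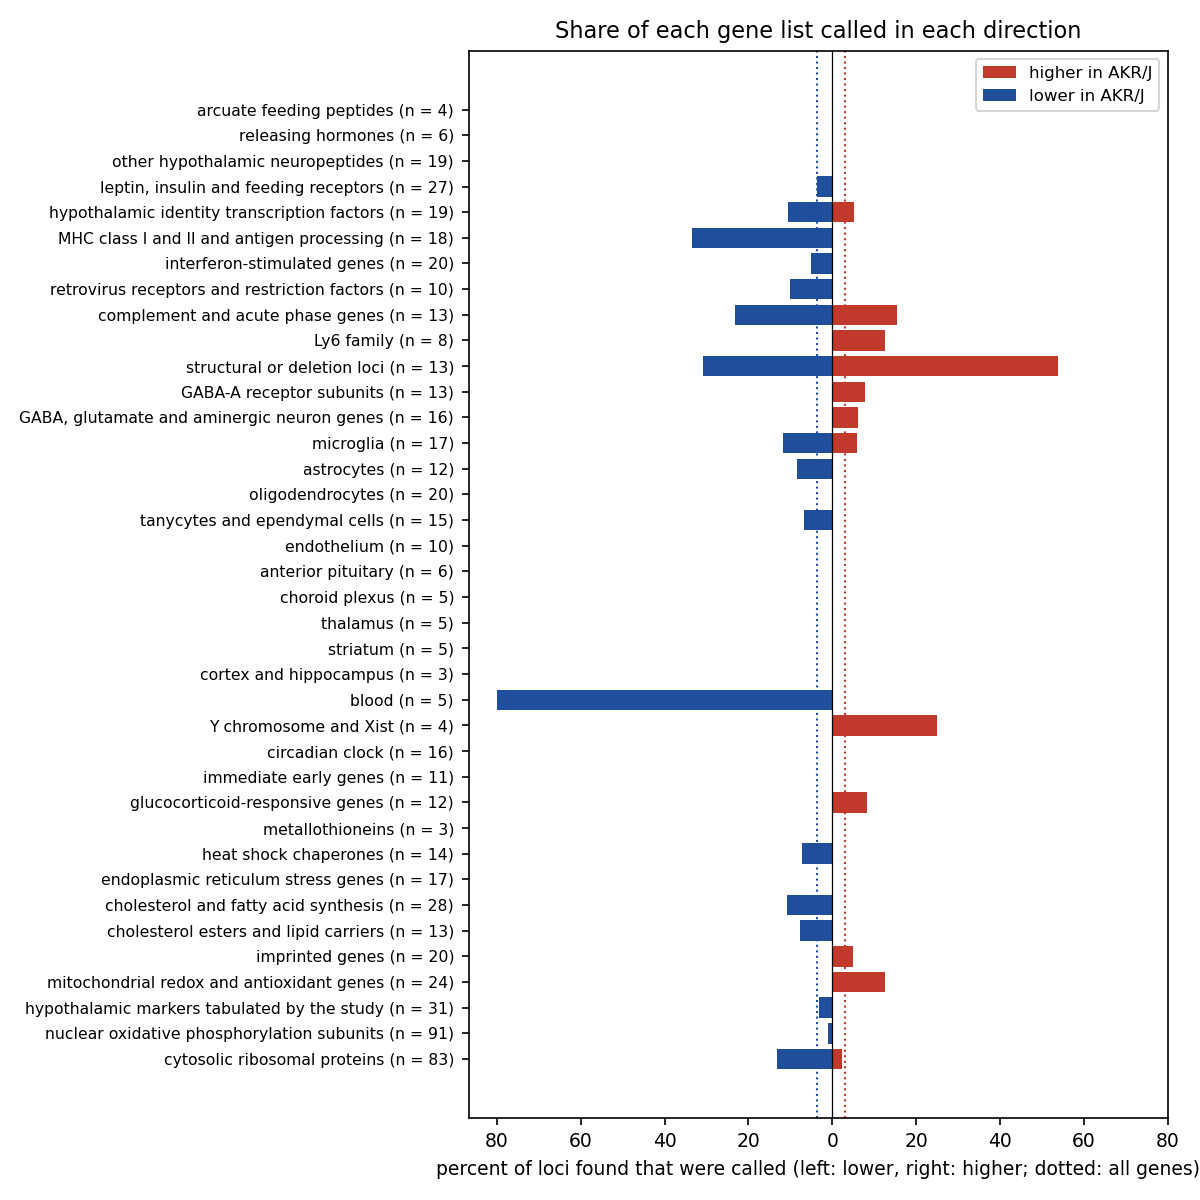
Bars give, for each of 38 gene lists, the percentage of loci found that were called higher in AKR/J (red, right) or lower (blue, left), with n the number of loci found and dotted lines at the shares of all genes, 3.05% and 3.71%. Blood markers, MHC genes, structural loci (which include the haemoglobins) and complement genes extend furthest to the left, and the structural loci extend furthest to the right as well.

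Ribosomal proteins were called 13 times in 83 loci, 11 lower and 2 higher in AKR/J, beside 3.71% and 3.05% of all genes. Their median was -0.12. The 2 that were higher, Rps3a2 and Rps3a3, are not coding genes but processed pseudogenes, intron-less copies of an mRNA put back into the genome. Sequence comparison then paired such copies with coding genes, a comparison chosen after the values had been seen. Copies were placed by overlap of exons with GENCODE M21, and each was given the coding transcript that it matched best. Of 184 loci of processed pseudogenes, 45 were higher and 4 lower in AKR/J, or 26.6% called against 6.75% of all genes, and their median difference was 0.36. Coding loci were called at 6.0%, lincRNA loci at 11.6% and loci without any M21 gene at 9.13%.

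Many coding genes of the higher copies were lower in AKR/J. The 42 copies that were higher in AKR/J and had their coding gene in the table (the copy-like coding locus Gm10260 included) belonged to 40 coding genes. Of these 40, 19 were lower in AKR/J, none was higher and 21 were not called, so 47.5% were lower against 3.71% of all genes, with a median of -0.37. Among 80 coding genes whose copies were not called, 9 were lower and 1 was higher, with a median of -0.099. The copies called matched their coding genes at a median identity of 98.7%.

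The 3 pairs with the highest copy levels show how close such sequences are, with 90 bases of the coding sequence of each gene and the same stretch of its copy, 5′ to 3′, from GENCODE M21 on GRCm38. Capitals mark the bases that differ.
Atp6v0c, chr17:24164793-24164882, minus strand: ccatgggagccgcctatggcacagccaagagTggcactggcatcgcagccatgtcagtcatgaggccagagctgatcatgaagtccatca
Atp6v0c-ps2, chr6:37806165-37806254, plus strand: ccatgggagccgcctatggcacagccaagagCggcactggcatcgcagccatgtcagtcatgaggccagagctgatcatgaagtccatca
Rpsa, chr9:120129158-120129247, plus strand: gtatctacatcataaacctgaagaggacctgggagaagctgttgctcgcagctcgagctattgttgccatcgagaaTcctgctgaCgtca
Rpsa-ps10, chr3:150073320-150073409, minus strand: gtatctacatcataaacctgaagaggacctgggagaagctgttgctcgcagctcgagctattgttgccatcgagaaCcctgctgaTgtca
Rps18, chr17:33952223-33952312, minus strand: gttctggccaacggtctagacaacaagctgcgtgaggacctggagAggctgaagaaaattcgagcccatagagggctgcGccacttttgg
Gm10260, chr13:97760208-97760297, minus strand: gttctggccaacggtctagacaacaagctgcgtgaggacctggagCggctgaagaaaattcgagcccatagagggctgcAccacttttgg

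Over the whole alignment, Atp6v0c and Atp6v0c-ps2 differed at 1 of 465 bases, Rpsa and Rpsa-ps10 at 6 of 885, and Rps18 and Gm10260 at 5 of 545. The study's alignment let a read map to up to 10 places and carry up to 3 mismatches.

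Rps18, a protein of the small ribosomal subunit, was at 52.2, 56.4 and 49 FPKM in AKR/J and at 109, 106 and 108 FPKM in C57BL/6J (-1.02, SE 0.19, adjusted p = 2e-05). Gm10260 was at 68.5, 53.3 and 71.9 FPKM in AKR/J and was listed at 0 FPKM in all 3 C57BL/6J mice (adjusted p = 1.2e-35). The sum of both was 121, 110 and 121 FPKM against 109, 106 and 108 FPKM, a difference of 0.12. The large opposite moves of gene and copy were thus nearly absent from their sum, and 20 of the other 23 strains were nearer to AKR/J for the copy.

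Atp6v0c, the proteolipid ring subunit of the vacuolar proton pump, was at 54.7, 44.8 and 50.5 FPKM in AKR/J and at 182, 171 and 169 FPKM in C57BL/6J (-1.78, SE 0.16, adjusted p = 5.1e-20). The unnamed locus that overlaps Atp6v0c-ps2 was at 134, 120 and 121 FPKM against 14.2, 8.85 and 7.78 FPKM (3.52, SE 0.26, adjusted p = 2.4e-27). Their sum was 189, 165 and 172 FPKM against 197, 179 and 177 FPKM, with overlapping mice and a difference of -0.074.

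Rpsa, the laminin receptor and small subunit protein, was at 45.6, 45 and 51.2 FPKM against 91.2, 75.7 and 80.9 FPKM (-0.79, SE 0.19, adjusted p = 0.0017), while Rpsa-ps10 was at 110, 107 and 106 FPKM against 2.4, 1.02 and 2.38 FPKM (5.25, SE 0.32, adjusted p = 4.7e-34). Here the sum did differ, at 155, 152 and 158 FPKM against 93.6, 76.7 and 83.2 FPKM (0.87). FPKM are per length, so such a sum need not keep the number of fragments.

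For other pairs the sum was still lower in AKR/J. Rplp0, the stalk protein of the large subunit, was at 36.2, 36.7 and 38.7 FPKM in AKR/J and at 119, 91.5 and 102 FPKM in C57BL/6J (-1.45, adjusted p = 3.6e-13), while its copy Gm8730 reached 7, 10.5 and 9.14 FPKM against 0.16, 0.264 and 0.195 FPKM. Rpl34 was at 53, 49 and 47.2 FPKM against 151, 161 and 142 FPKM (-1.59, adjusted p = 1.2e-13) and its copy Rpl34-ps1 at 5.31, 4.12 and 15.8 FPKM in AKR/J. Rnps1, a splicing activator, was at 11.4, 11.4 and 11.5 FPKM against 31.6, 29.3 and 31.6 FPKM (-1.36, adjusted p = 6.8e-23), with its copy Gm9825 at 9.97, 4.21 and 9.85 FPKM in AKR/J. The summed differences of these 3 pairs remained at -1.15, -1.37 and -0.68. Insig1, one of the lipid genes above, was the best match of Gm37784, though over an alignment of only 189 bases. Gm37784 was at 2.89, 3.45 and 3.81 FPKM against 0.09, 0.146 and 0.103 FPKM, and the sum with Insig1 differed by -0.21.

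Rpl29 moved in 1 direction with its copy. It was at 13.6, 8.68 and 9.22 FPKM in AKR/J and at 49.1, 41 and 38.1 FPKM in C57BL/6J (-1.94, SE 0.18, adjusted p = 1.6e-18), and Gm10709, which matches it at 99.2%, was at 0.165, 0.169 and 0.3 FPKM against 3.45, 5.06 and 2.8 FPKM. The other lower ribosomal proteins were Rpl35a (-1.58), Rps4y2 (-1.45), Rpl30 (-1.18), Rpl21 (-0.89), Rpl3 (-0.62) and Rps7 (-0.47). Rpl3 lost its call without the first C57BL/6J mouse, and Rps7 lost it without any of 5 of the 6 mice, the second C57BL/6J mouse excepted. Rps4y2 is listed in M21 as a processed pseudogene, Rps4l. Because the alignment reference is the genome of C57BL/6J, the part of read placement in the levels of genes with copies was not tested.

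**Figure D4:**
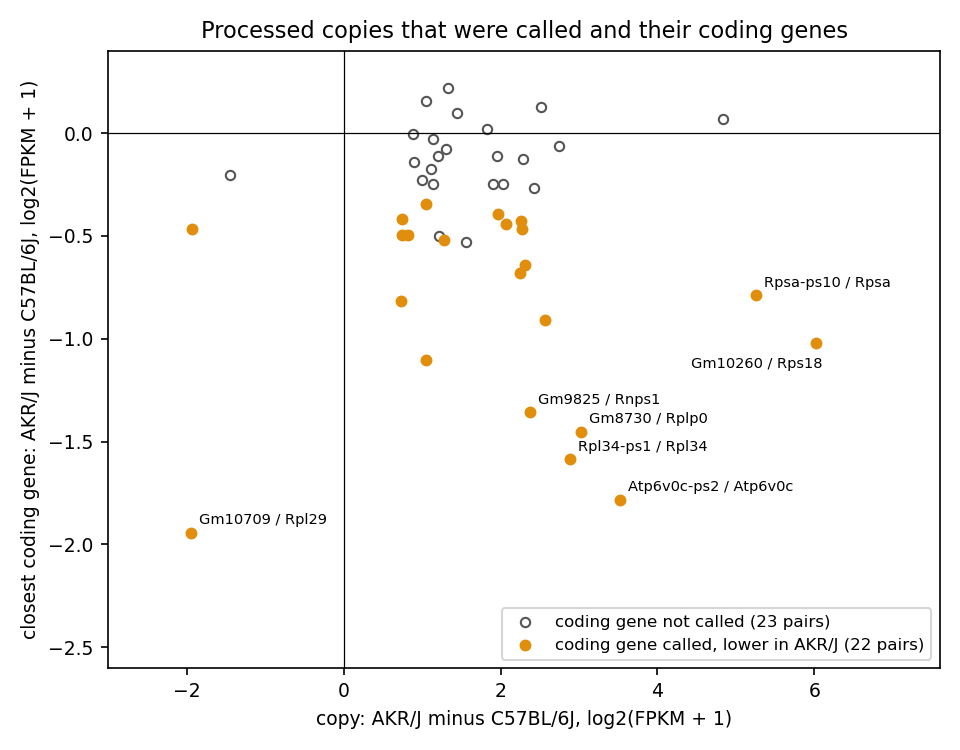
Each of 45 points is a processed copy that was called, with its difference AKR/J minus C57BL/6J in log2(FPKM + 1) on the x axis and that of its closest coding gene on the y axis. Filled points are the 22 pairs whose coding gene was called, all of them lower in AKR/J.

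Other loci among the largest differences were of mixed kinds. Gm26723, a lincRNA locus, was at 0, 0 and 0.0151 FPKM in AKR/J and at 54.1, 48.1 and 33.2 FPKM in C57BL/6J (-5.49, SE 1.43, adjusted p = 0.0046), and 6 of the other 23 strains were nearer to AKR/J. Pisd-ps1, an unprocessed copy of phosphatidylserine decarboxylase, was at 10.6, 6.45 and 10.3 FPKM against 103, 95.9 and 48.5 FPKM (-2.999, SE 0.22, adjusted p = 2.8e-26). Others of the 15 largest that were higher in AKR/J were Gm5506 (4.6), Gm1840 (2.75), Gm6472 (2.28), Rps3a2 (2.03), Rps3a3 (1.91) and Eif3j2 (1.66), and of the 15 that were lower Gm5148 (-2.10) and Gm9493 (-1.93). Several of these are processed copies. Gm1840 matched Gpi1 best, Rps3a2 and Rps3a3 matched Rps3a1, and Gm6472 and Gm9493 matched Rps7. Gpi1 and Rps3a1 were not called. Rps7 was lower in AKR/J, with Gm6472 higher and Gm9493 lower.

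By position along the genome, the share of genes called ran from 2.3% on chromosome 16 to 10.8% on chromosome 17 among the autosomes. Of 328 windows of 5 Mb with at least 15 genes, 64 held no called gene. Whether this departs from an even spread was not tested. Runs of 3 or more neighbouring loci called in 1 direction occurred 4 times and took in 12 genes.

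The first run lies at chr2:32236590-32288075 (mm10). It holds Pomt1, a protein O-mannosyltransferase, Uck1, a uridine-cytidine kinase, and Swi5, a recombination repair factor. Pomt1 was at 19.9, 22.6 and 20.6 FPKM in AKR/J and at 8.55, 8.2 and 10.5 FPKM in C57BL/6J (1.13, SE 0.13, adjusted p = 1.5e-12). Swi5 was at 233, 238 and 228 FPKM against 131, 122 and 118 FPKM (0.91, SE 0.12, adjusted p = 7.3e-11), and Uck1 at 30, 33.3 and 30 FPKM against 18.1, 16.2 and 18.2 FPKM (0.79, SE 0.13, adjusted p = 8.7e-07). None of the other 23 strains was nearer to AKR/J for any of them, and their highest means, 11.4 FPKM for Pomt1, 21.1 FPKM for Uck1 and 137 FPKM for Swi5, stayed below every AKR/J mouse. The loci on either side, named after their values were seen, were not called: Prrc2b had a difference of 0.22 (adjusted p = 0.098) and Golga2 of 0.028 (adjusted p = 0.92).

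Another run, on chromosome 3, held S100a11 and S100a10, small calcium-binding proteins of the S100 family, and Them4, a thioesterase, all lower in AKR/J. S100a11 was at 1.08, 1.18 and 2.34 FPKM against 4.98, 6.11 and 6.97 FPKM (-1.50, SE 0.35, adjusted p = 0.0011), S100a10 differed by -0.75 (SE 0.23, adjusted p = 0.024) and Them4 by -0.50 (SE 0.11, adjusted p = 0.00063). S100a10 lost its call under 4 alternatives. The C1q genes made up a further run.

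Set among the 25 classical strains, 16 called genes of at least 1 FPKM had none of the other 23 strains nearer to AKR/J, and 10 had all 23 nearer to it. The genes named next were picked from these after their values were seen. Oxct1, the enzyme that activates ketone bodies for use as fuel, was at 99.8, 87.8 and 96.3 FPKM in AKR/J and 53.4, 54.4 and 54.8 FPKM in C57BL/6J (0.79, SE 0.087, adjusted p = 2.5e-14), and the other strains ran from 46.1 to 64.3 FPKM. Mpeg1, perforin-2 of macrophages, was at 0.401, 0.387 and 0.248 FPKM in AKR/J and 2.26, 4.31 and 4.52 FPKM in C57BL/6J (-1.77, SE 0.23, adjusted p = 2.4e-10), and no other strain was below 1.75 FPKM. AKR/J was thus the outlying strain for both. Lpcat3, which puts polyunsaturated fatty acids into phospholipids, had C57BL/6J as the outlying strain at 10, 14.7 and 13.8 FPKM against 9.05, 8.24 and 5.79 FPKM in AKR/J (-0.67, SE 0.19, adjusted p = 0.0098), with the others from 6.49 to 9.54 FPKM. Its call was lost with the 6 mice alone and without the third AKR/J or the second or the third C57BL/6J mouse (adjusted p up to 0.17). Ggt7, of the gamma-glutamyltransferase family, was at 82.1, 81.5 and 69.2 FPKM in AKR/J and 49.9, 63.5 and 61 FPKM in C57BL/6J (0.41, SE 0.13, adjusted p = 0.023), with the others up to 64 FPKM, and lost its call with the 6 mice alone and without the first or the second AKR/J or the first C57BL/6J mouse. Maml2, a Notch co-activator, met the count through 1 mouse only, at 59.9, 3.12 and 3.72 FPKM in AKR/J.

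**Figure D5:**
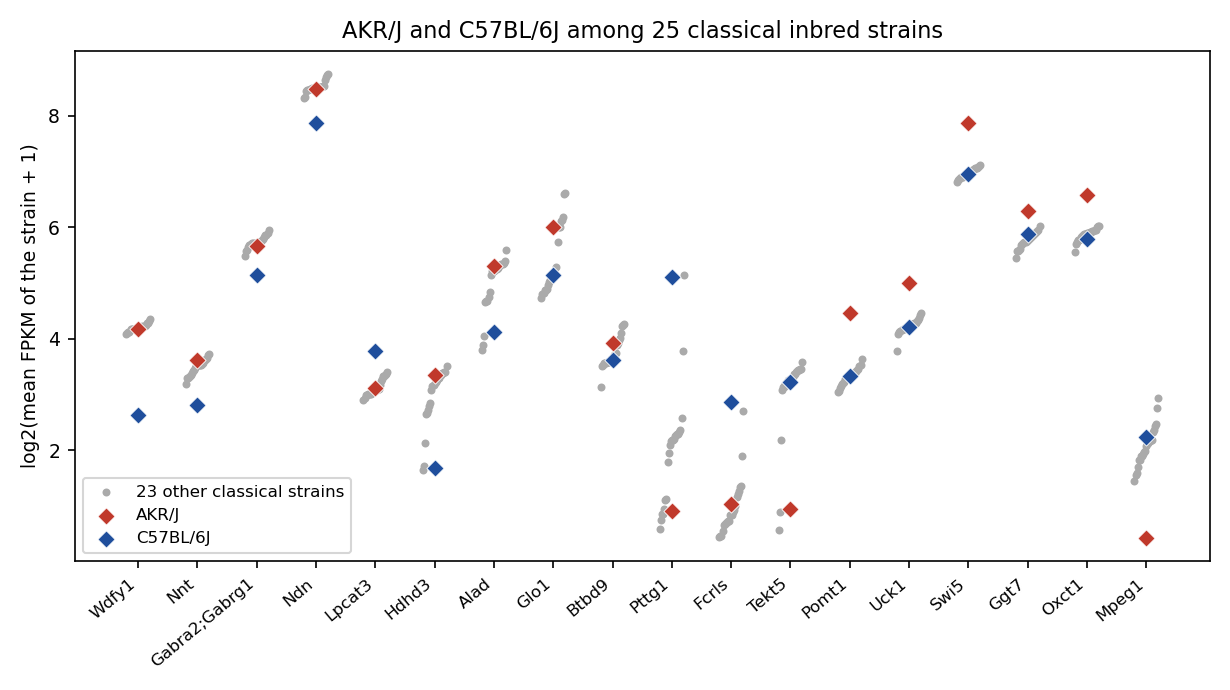
The y axis is log2(mean FPKM of the strain + 1) for 18 genes, with a red diamond for AKR/J, a blue diamond for C57BL/6J and grey dots for the 23 other classical strains in rising order. C57BL/6J lies outside the range of all others for Wdfy1, Nnt, Gabra2 with Gabrg1, Ndn, Lpcat3 and Fcrls, and AKR/J for Pomt1, Uck1, Swi5, Ggt7, Oxct1 and Mpeg1.

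At the level of transcripts, 751 of 51024 (1.47%) were called, 342 higher (0.67%) and 409 lower (0.802%) in AKR/J. They belonged to 628 genes, and 385 of them to genes that were called as a whole. In 309 genes a transcript was called while the gene was not, and in 38 genes called transcripts went in both directions, of which 31 were not called as genes. Transcript levels are estimates that divide shared fragments among models, so a switch between 2 models of one gene is less certain than a change of the gene.

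Soat1, which esterifies cholesterol and carries a known AKR/J allele, had no difference as a gene. It was at 6.57, 7.35 and 7.06 FPKM in AKR/J and at 6.57, 7.19 and 6.67 FPKM in C57BL/6J (0.033, SE 0.095, adjusted p = 0.92). The 2 of its transcript models that were called share 15 exons and end differently at the 3′ side, on the minus strand of chromosome 1. The longer model, whose last exon of 6719 bases ends at position 156424397, was below 0.001 FPKM in every AKR/J mouse and at 3.4, 5.23 and 4.07 FPKM in C57BL/6J (-2.37, adjusted p = 0.00039). The shorter one, whose last exon is 3711 bases shorter and ends at position 156428108, was at 4.36, 5.84 and 4.87 FPKM against 1.94, 1.93 and 1.43 FPKM (1.12, adjusted p = 0.04). The 2 models thus moved in opposite directions, while the levels of the whole gene overlapped. In AKR/J they sum to less than the gene, and the 3′ ends of its remaining models were not compared.

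Other genes with models called in both directions were chosen here after their values were seen. For Gapdh, the glycolytic dehydrogenase, a model of 1420 bases was at 1.78, 1.27 and 0 FPKM in AKR/J and at 267, 313 and 209 FPKM in C57BL/6J, whereas a model of 1272 bases was at 59.5, 57.2 and 85.8 FPKM against values under 0.001 FPKM. A model of 565 bases was higher in AKR/J as well, at 127, 106 and 77.1 FPKM against 6.9, 4.72 and 6.38 FPKM. The gene itself differed by -0.11 (adjusted p = 0.78). For Tuba1a, an alpha-tubulin, a model of 916 bases was near 0 in AKR/J and at 72.2, 102 and 114 FPKM in C57BL/6J, a model of 610 bases was at 108, 97.1 and 80.2 FPKM in AKR/J, and the gene differed by -0.11 (adjusted p = 0.67).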

How the data were processed

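Hypothalamic RNA of 282 mice was sequenced by the authors as paired-end reads of 50 bases, without strand. Per the labels and the study's methods, reads were aligned to mm10 with STAR 2.3.1, allowing up to 3 mismatches and up to 10 places per read, assembled and merged with Cufflinks 2.2.0 and quantified with Cuffnorm 2.2.1. The deposited FPKM of genes and transcripts had been filtered by the authors on detection over the whole panel. They hold no counts, so no count test could be run and no depth could be read from them.

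FPKM were tested as log2(FPKM + 1), which understates the change of low genes. A mean per strain was fitted to 281 mice of 99 strains with limma 3.58.1 in R 4.3.3, so that the within-strain spread of all strains served the contrast of AKR/J with C57BL/6J. Adjusted p are two-sided Benjamini-Hochberg values from limma over all 14079 genes or 51024 transcripts, with a threshold of 0.05. An exact permutation of 3 against 3 mice cannot go below 0.1 and was not used. The 1 mouse whose title and strain label name different strains was left out. Replicate numbers follow the order of the records.

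Gene names came from the merged assembly, and gene types and copies from GENCODE M21 (bedtools 2.31.1, blastn of BLAST 2.17.0, e-value 1e-20). Genes named were the 15 largest differences in each direction with 1 gene name, mice that did not overlap and a mean of at least 1 FPKM, list members called or defining their list, and genes of runs. Members and lists were chosen with earlier results of these data known. Alternatives were another pseudocount, a filter on low values, other scalings, other sets of mice, an intensity trend and leaving out each mouse. In data simulated with normal noise, 200 of 14079 genes, drawn only from those with higher mean levels, were shifted by 1. Of these, 96.5% were recovered. Shifts of low genes or of other sizes were not simulated, so their recovery is unknown. Some results, among them 1 run of neighbours, are not reported here.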

Additional observations from a re-analysis of the deposited data

How the results depend on the processing

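The number of genes called was 951, and it ran from 652 to 758 when each of the 6 mice was left out in turn. It was 793 with the 6 mice alone and 1398 with the 25 classical strains. Without mouse OB-547, which belongs to neither strain, it rose to 1181. Under the other alternatives it lay between 864 and 1051. With the 6 mice alone, 63.5% of the genes first called were called again. Of 82 called genes followed by name, 55 were called under every alternative run, 27 lost the call under at least 1 and none changed direction. Most losses came with a mouse left out, 19 without the first AKR/J mouse. The number of transcripts called, 751, fell to 303 with the 6 mice alone, of which 184 were among the 751, and ran from 493 (without the first AKR/J mouse) to 641 with each mouse left out. The cause was not tested. It lay between 639 and 880 under the other alternatives. No paired analysis was possible because the replicate numbers only name mice in the order of the records. FPKM do not give the depth of each library, and the mapping counts that the study reports for each sample were not used. What counting error adds to low levels was therefore not estimated.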

Other observations

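Loci with neither a gene name nor a gene of GENCODE M21 over their exons numbered 1753, of which 75 were higher and 86 lower in AKR/J. Those given here were chosen after their values were seen. A locus at chr4:121712424-122009589 (mm10) was at 93.1, 77.1 and 77.9 FPKM in AKR/J and at 6.97, 5.55 and 5.06 FPKM in C57BL/6J. A locus at chr7:3181068-3181973 was at 24.4, 20.3 and 17.1 FPKM in AKR/J and below 0.4 FPKM in every C57BL/6J mouse, and one at chr8:29286168-29291958 was at 21.6, 23.2 and 25.1 FPKM against 0.859, 0.699 and 0.827 FPKM.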
